A study of Homo sapiens with 12 samples.

Results

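The major histocompatibility complex (MHC) on the short arm of human chromosome 6 was examined in HL-60 cells, an established human promyelocytic leukemia line, after and before differentiation toward neutrophil-like cells. Differentiated cells had been grown for 7 days with 1.5% dimethyl sulfoxide (DMSO, 211 mM) and were sorted as CD11b+ and SYTOX Blue-, and undifferentiated cells were sorted as CD11b- and SYTOX Blue-. Both groups are 1 leukemia line and are sorted fractions, so that a change at a region cannot be told apart from a change in which cells passed the sort. DNA of 3 biological replicates per state was divided between methylated DNA immunoprecipitation (MeDIP), which pulls down DNA carrying 5-methylcytosine (5mC), and hydroxymethylated DNA immunoprecipitation (hMeDIP), which pulls down DNA carrying 5-hydroxymethylcytosine (5hmC). This gave 12 libraries, and no input library was analysed here. All regions of chromosome 6 that start between 29.5 and 33.5 Mb (hg19) were taken, a span of 4 Mb. They numbered 50 of 327931 5hmC regions with values and 9 of 65535 listed 5mC regions, and all 50 and all 9 were tested. Among the listed regions the choice used position alone. The 5mC list itself, however, holds only regions that the authors' own test ranked as most different between the states.

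The MHC holds the genes with which cells show peptides to T cells. Class I molecules, such as HLA-B and HLA-C, show peptides from inside nearly every nucleated cell, class II molecules (HLA-DR, HLA-DQ and HLA-DP) show peptides taken up by antigen-presenting cells, and the class III segment between them holds genes of complement, of the tumor necrosis factor family and of heat shock proteins beside many unrelated genes. 5mC at CpG dinucleotides is the common methylation mark of mammalian DNA, and TET enzymes oxidise it to 5hmC, which is often found in gene bodies and at enhancers. Antibody capture measures how much marked DNA was pulled down, so fewer marked cytosines per cell, fewer cells with the mark and fewer copies of the locus cannot be told apart.

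Start windows were available for some of the genes at which a region is described, and they are shown because antibody capture varies with CpG density. Of 17 genes that held a region or had one within 5 kb of their start in either mark, 12 matched the RefSeq table (GRCh38.p14) by symbol. Each window runs from 250 bases before to 50 bases after a start, 5′ to 3′ on the strand of the gene. Capitals mark the motif CG, which reads the same on both strands. It was present in 96% of the 35116 windows of that table, with a median of 14 per window of 300 bases.
GABBR1 (chr6:29627964-29628263, minus strand): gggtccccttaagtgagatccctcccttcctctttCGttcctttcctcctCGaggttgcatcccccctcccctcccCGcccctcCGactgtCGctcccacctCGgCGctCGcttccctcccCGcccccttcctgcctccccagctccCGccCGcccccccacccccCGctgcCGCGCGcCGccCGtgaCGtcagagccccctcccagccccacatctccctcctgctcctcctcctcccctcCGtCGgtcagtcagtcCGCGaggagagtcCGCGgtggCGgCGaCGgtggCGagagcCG
HLA-F (chr6:29723184-29723483, plus strand): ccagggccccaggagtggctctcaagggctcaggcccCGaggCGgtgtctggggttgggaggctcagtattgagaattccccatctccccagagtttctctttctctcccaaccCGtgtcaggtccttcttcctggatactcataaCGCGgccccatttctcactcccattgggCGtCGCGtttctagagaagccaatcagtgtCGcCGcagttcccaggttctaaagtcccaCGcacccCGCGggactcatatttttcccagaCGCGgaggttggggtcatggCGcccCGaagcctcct
TNXB window 1 (chr6:32109289-32109588, minus strand): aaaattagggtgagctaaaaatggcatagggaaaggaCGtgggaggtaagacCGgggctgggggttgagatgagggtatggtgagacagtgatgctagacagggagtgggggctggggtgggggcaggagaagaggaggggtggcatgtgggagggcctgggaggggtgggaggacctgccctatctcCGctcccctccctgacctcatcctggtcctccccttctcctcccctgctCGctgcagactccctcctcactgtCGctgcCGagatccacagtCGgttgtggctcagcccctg
TNXB window 2 (chr6:32046079-32046378, minus strand): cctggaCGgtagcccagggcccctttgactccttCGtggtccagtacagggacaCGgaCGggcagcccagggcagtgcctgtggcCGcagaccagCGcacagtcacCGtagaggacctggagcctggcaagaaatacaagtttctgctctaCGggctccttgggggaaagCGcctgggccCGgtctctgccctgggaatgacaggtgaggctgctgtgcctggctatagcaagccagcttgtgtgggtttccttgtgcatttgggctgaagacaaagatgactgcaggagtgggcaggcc
MDC1 (chr6:30717232-30717531, minus strand): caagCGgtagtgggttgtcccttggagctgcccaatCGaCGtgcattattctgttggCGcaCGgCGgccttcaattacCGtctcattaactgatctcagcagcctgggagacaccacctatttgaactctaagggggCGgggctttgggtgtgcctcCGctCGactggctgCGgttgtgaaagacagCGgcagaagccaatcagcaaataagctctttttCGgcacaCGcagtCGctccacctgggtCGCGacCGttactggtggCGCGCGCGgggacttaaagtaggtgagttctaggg

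The window of GABBR1 held 29 CG, a number reached by 24.2% of all windows. That of MDC1 held 22 (37.7% of windows held as many) and that of HLA-F held 17 (46%). The TNXB windows held 7 and 10 CG, numbers reached by 63.2% and 56.4% of windows. These positions belong to GRCh38.p14 and were not converted, and regions below are on hg19. The link between a region and a gene is the nearest gene and the distance that the authors deposited. Which start that distance refers to was not matched between the builds for any of these genes. A window shown need therefore not lie at the region described for its gene.

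Regions were sparse across the MHC in both tables. The 50 5hmC regions covered 43.4 kb and amounted to 12.5 per Mb, against 107 per Mb in the 4 Mb below (427 regions) and 226 per Mb in the 4 Mb above (905 regions). The 9 listed 5mC regions covered 8.4 kb, or 2.25 per Mb, against 27 per Mb below (108 regions) and 46.5 per Mb above (186 regions). Since the 5mC list holds only regions ranked as most different between the states, these densities do not count all regions with 5mC. Most of the regions lay at the upper end of the span.

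In windows of 1 Mb, those that begin at 29, 30, 31 and 32 Mb held 5, 3, 6 and 8 5hmC regions. The windows beside them, at 28 and 33 Mb, held 68 and 132. Over the genome the median was 102 per window (quartiles 65 and 150) among 2908 windows with a region, and 37 of them held at most 8. The same 4 windows held 2, 1, 0 and 1 listed 5mC regions, where the genome had a median of 19. The longest stretch without a listed 5hmC region measured 682.6 kb, from TRIM26 to DDR1. For listed 5mC regions it measured 1674 kb, from MDC1 to HCG23, which is a gap in a selected list and no sign that 5mC is absent.

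**Figure D1:**
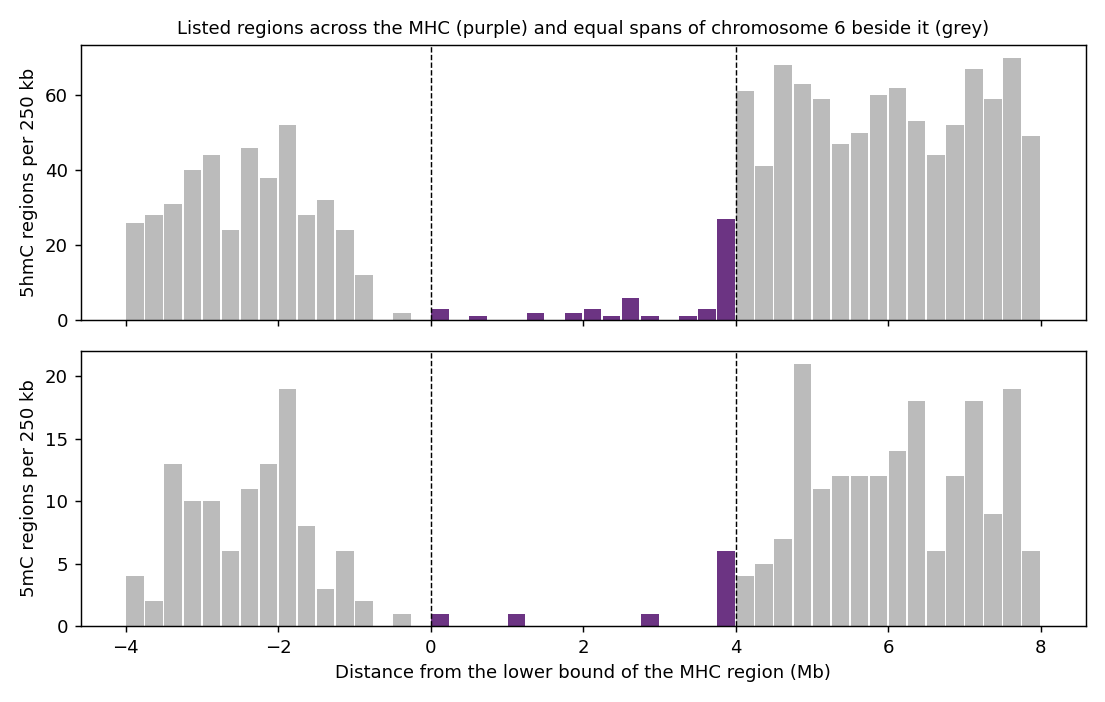
Number of listed regions per 250 kb (upper panel 5hmC, lower panel 5mC) against distance in Mb from the lower bound of the MHC span. Purple bars lie inside the span and grey bars in the equal spans of chromosome 6 on either side. The sparse stretch begins 0.75 Mb below the span, where 3 grey bars stand at 0, 2 and 0 for 5hmC and at 0, 1 and 0 for 5mC. Purple bars stay low up to the last 250 kb, where 5hmC regions number 27, and the grey bars just above the span are high again.

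A stretch of chromosome 17 at band q21, looked at after the counts of the MHC were seen, was sparse too. Its 250-kb windows that begin at 43.5, 43.75 and 44 Mb held 9, 4 and 2 5hmC regions, and the window at 43.25 Mb held 55. GRCh37 is distributed with alternative haplotype sequences for the MHC and for this stretch of chromosome 17. The sources used here do not say whether these were part of the alignment target, and their part in the sparse listing was not tested. For a gene with no listed region these tables hold no value, which is no statement that it lacks a mark.

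Of 182 genes in a list of MHC genes, 14 had a 5hmC region in the gene or within 5 kb upstream of its start, and 3 had a listed 5mC region. Among 18 class I heavy chain genes and pseudogenes 1 had a 5hmC region, HLA-F, which encodes a non-classical class I chain. None of the 13 class II chain genes and none of the 4 genes of class II peptide loading had one. The same held for the 5 class II segment genes that supply class I peptides (TAP transporters and proteasome subunits), for tapasin, for 8 genes of the tumor necrosis factor family and inflammation, and for 3 heat shock genes. Of 9 genes of complement and its neighbours 1 had a 5hmC region, TNXB. None of these lists had a 5mC region.

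The 50 5hmC regions were 200 to 2400 bases wide (median 800). Within 1 kb of a gene start lay 6 of them (12%), against 2.99% of all 5hmC regions, 8.43% in the 4 Mb below and 5.75% in the 4 Mb above. Of the 50 regions 22 (44%) lay in a gene, against 48.3% of all, and 1 (2%) lay in a CpG island, against 1.73% of all. Their median level was 2.31 CPM per kb (counts per library total, the totals adjusted by TMM, edgeR's trimmed mean of log ratios), against 2.55 over all regions. Together they held between 1395 and 3469 counts in each differentiated library and between 1786 and 4242 in each undifferentiated library, out of totals of 13010267 to 32495733 and 15688562 to 33693880 counts. Such counts limit what can be seen at single regions of about 1 CPM. In the check of the labelled states, 5hmC in ITGAM, the gene of CD11b, was higher in differentiated cells (log2 fold change 0.17, SE 0.0609, adjusted p = 0.0329), and 5hmC in the myeloperoxidase gene MPO was lower (−0.84, SE 0.132, adjusted p = 0.000239). In the selected 5mC list both genes moved the same way (0.16, SE 0.0513, adjusted p = 0.00431 for ITGAM, and −0.65, SE 0.155, adjusted p = 0.000183 for MPO). ITGAM depended on the scaling, which was checked after the data were seen: it did not pass without TMM (0.12 for 5hmC and 0.03 for 5mC) or with TMM from the strongest genes (0.08 and −0.05), whereas MPO passed in all 4 fits. No expression was measured.

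The MHC's share of all 5hmC counts was 0.0111%, 0.0107% and 0.0107% in differentiated replicates 1, 2 and 3, and 0.0126%, 0.0117% and 0.0114% in the undifferentiated ones. The means were 0.0108% ± 0.000212 and 0.0119% ± 0.000622 (SD, n = 3 each), and every differentiated library lay below every undifferentiated one. The exact permutation test (two-sided) gave p = 0.1, the smallest value that 3 against 3 libraries allow. These shares rest on library totals without TMM. On that scale the median log2 fold change of all 5hmC regions was itself negative (−0.25), so the lower share is not particular to the MHC. Set against the other regions of chromosome 6 instead, the MHC held 0.284% of the 5hmC counts in differentiated and 0.293% in undifferentiated libraries, a difference of −0.00855 percentage points that is smaller than the SD (0.0144).

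By region, 5hmC was higher in differentiated cells at 9 of the 50 regions, lower at 11, and not past the threshold at 30 (adjusted p under 0.05 in the quasi-likelihood test of edgeR, Benjamini-Hochberg over all regions). Over all regions tested, 27% were higher and 23.3% lower. Differentiated and undifferentiated libraries were fully separate at 24 of the 50 regions, against 52.2% of all regions. The median log2 fold change, differentiated over undifferentiated, was 0.07 in the MHC and −0.04 over all regions. The median size of the change was 0.454 in the MHC and 0.505 over all. Without TMM the median of all regions moved to −0.25, and 4 MHC regions were higher and 18 lower, against 14% higher and 36.1% lower over all regions. With TMM taken from the strongest regions the median moved to −0.33, and 1 MHC region was higher and 18 lower, against 10.2% and 41% of all. DESeq2's Wald test called 3 higher and 4 lower, against 13.2% and 7.09% of all. Lower regions numbered 6 without differentiated replicate 3, against 13.2% of all regions, and 7 without undifferentiated replicate 1, against 13.9% of all.

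**Figure D2:**
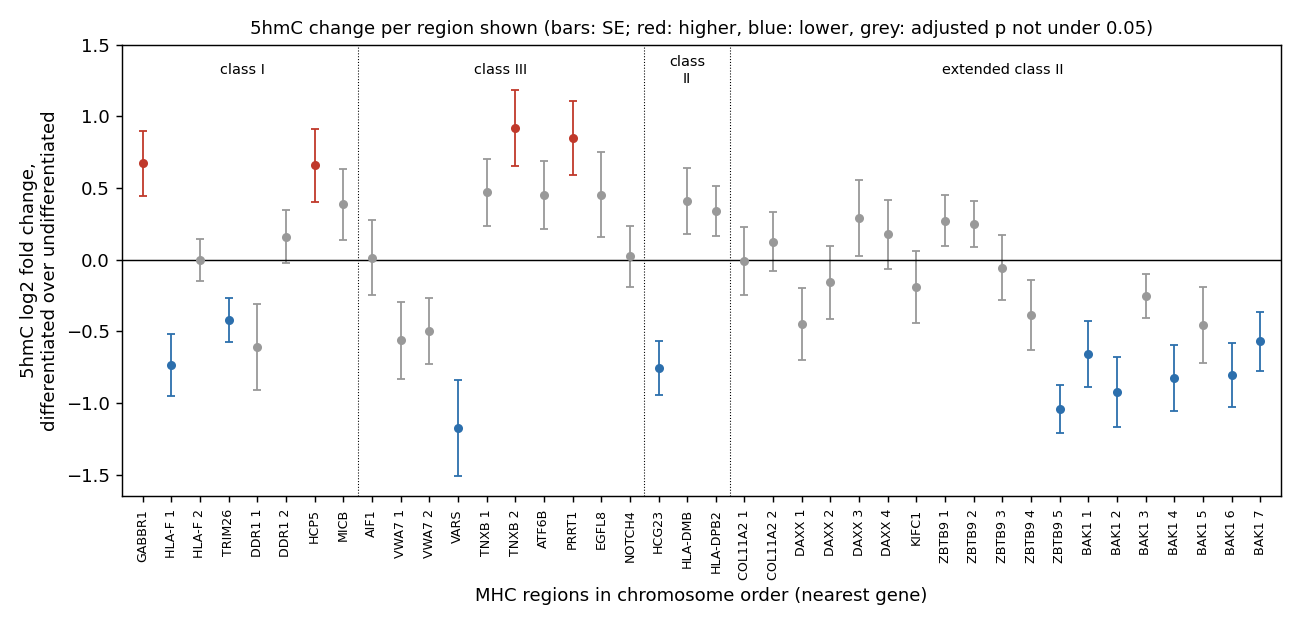
Log2 fold change of 5hmC, differentiated over undifferentiated, of 40 of the 50 MHC regions in chromosome order, each named by its nearest gene. Points are edgeR estimates, bars are SE, red marks regions past the threshold as higher and blue as lower, and dotted lines part class I, class III, class II and extended class II. The last 8 regions, from the fifth ZBTB9 region to BAK1, lie below 0.

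The class I segment held 8 regions, of which 2 were higher, 2 lower and 4 not past the threshold. GABBR1, which encodes a subunit of the GABA-B receptor, had a region at a start by the deposited distance (29599401 to 29600000). It measured 2.37, 1.70 and 1.82 CPM in differentiated replicates 1, 2 and 3, and 1.19, 1.16 and 1.39 CPM in the undifferentiated ones. The states did not overlap, and the log2 fold change was 0.67 (SE 0.226, adjusted p = 0.0125). The call ended without TMM (0.46), with TMM from the strongest regions (0.38), in DESeq2 (0.68) and without differentiated replicate 1 (0.53) or undifferentiated replicate 1 (0.64).

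HLA-F had a pair of regions upstream of its start, of which 1 was lower and 1 did not pass. The farther one, 2918 bases away (29687801 to 29688200), measured 1.30, 1.34 and 1.44 CPM in differentiated libraries and 2.79, 1.78 and 1.99 CPM in undifferentiated libraries. It was lower, with no overlap of the states (log2 fold change −0.73, SE 0.216, adjusted p = 0.00518). The nearer one, 318 bases from the start (29690201 to 29690800), measured 1.58, 2.95 and 1.44 CPM in differentiated libraries and 1.84, 2.07 and 1.39 CPM in undifferentiated libraries. Here the states overlapped and the adjusted p was 0.999. The difference between the 2 regions was not tested. Summed over both, HLA-F did not pass (log2 fold change −0.38, SE 0.175, adjusted p = 0.0806). The call at the farther region ended in DESeq2 (−0.70, adjusted p = 0.075) and without undifferentiated replicate 1 (−0.45, adjusted p = 0.173).

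A region beside TRIM26, which encodes a tripartite motif protein (30151601 to 30152000), measured 3.49, 4.39 and 3.60 CPM in differentiated libraries and 4.72, 5.21 and 5.25 CPM in undifferentiated libraries. It was lower (−0.42, SE 0.154, adjusted p = 0.0208) without overlap, though the authors' deposited table gives it an adjusted p of 0.0514, and DESeq2 did not call it (adjusted p = 0.126). Its call also ended without differentiated replicate 1 or 3 or undifferentiated replicate 2 or 3 (−0.40 to −0.37). A region 8758 bases from HCP5, a noncoding RNA gene of retroviral origin, was higher (0.66, SE 0.254, adjusted p = 0.0274), but its libraries overlapped, with 1.63, 0.895 and 1.82 CPM in differentiated and 1.11, 0.965 and 0.785 CPM in undifferentiated cells. HCP5, which is named after its values were seen, lost its call in 8 of 11 alternatives, among them without differentiated replicate 1 (0.63) or 3 (0.43) and without undifferentiated replicate 2 (0.64) or 3 (0.57). MICB, which encodes a stress-induced ligand of natural killer cells, had a region in the gene at 1.35, 2.06 and 1.35 CPM in differentiated cells and 1.19, 0.916 and 1.33 CPM in undifferentiated cells. Its states did not overlap, but it did not pass (0.39, adjusted p = 0.179). Both regions nearest DDR1, which encodes a collagen receptor kinase, did not pass either (−0.61 and 0.16).

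The class III segment held 10 regions, of which 2 were higher, 1 lower and 7 not past the threshold. The regions of VWA7, which encodes a protein with a von Willebrand factor A domain, and VARS, the valyl-tRNA synthetase gene, had negative fold changes. Those from TNXB to EGFL8, farther along the chromosome, had positive ones. Both groupings were made after the values were seen and leave out the regions near AIF1 and NOTCH4. Of the 3 regions of VWA7 and VARS 1 passed, and of the 5 from TNXB to EGFL8 2 passed. The VARS region (31758201 to 31758600) was the weakest of the called regions by CPM, at 0.451, 0.716 and 0.376 CPM in differentiated libraries and 1.09, 0.820 and 1.27 CPM in undifferentiated libraries. The states did not overlap and the log2 fold change was −1.17 (SE 0.334, adjusted p = 0.00389; −0.91, adjusted p = 0.0822, without differentiated replicate 3). At VWA7 2 regions had log2 fold changes of −0.56 and −0.50 and did not pass singly (adjusted p = 0.0719 and 0.0622).

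TNXB encodes tenascin-X, a glycoprotein of the extracellular matrix. Its region 50 bases from a start (32077201 to 32078200) measured 1.80, 1.79 and 1.25 CPM in differentiated libraries and 0.814, 0.868 and 0.724 CPM in undifferentiated libraries. Every differentiated library lay above every undifferentiated one. The log2 fold change was 0.92 (SE 0.263, adjusted p = 0.00403), and the region passed as higher in all 11 alternatives (0.635 to 1.15). A region 1341 bases from PRRT1, which encodes a proline-rich transmembrane protein (32114001 to 32114800), was higher as well (0.85, SE 0.261, adjusted p = 0.0068). Its libraries overlapped, with 1.92, 1.07 and 1.60 CPM in differentiated cells and 0.814, 1.16 and 0.664 CPM in undifferentiated cells, and its call ended in DESeq2 (0.84), with TMM from the strongest regions (0.56) and without differentiated replicate 1 (0.71) or undifferentiated replicate 1 (0.76). PRRT1, too, is named after its values were seen. The other 3 of these 5 regions, in TNXB, near ATF6B, which encodes a transcription factor of the stress response in the endoplasmic reticulum, and at the start of EGFL8, had log2 fold changes of 0.47, 0.45 and 0.45 and did not pass. Regions near AIF1 and NOTCH4 lay at 0.02 each and did not pass.

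The class II segment held 3 regions: 1 was lower and 2 did not pass. The lower one was 200 bases wide and lay inside HCG23, a noncoding RNA gene (32360201 to 32360400). It had 2.31, 2.86 and 1.47 CPM in differentiated libraries and 3.72, 2.99 and 3.38 CPM in undifferentiated libraries. The states did not overlap and the log2 fold change was −0.75 (SE 0.188, adjusted p = 0.00123; 0.0557 in DESeq2). Without differentiated replicate 3 it was −0.42 and did not pass (adjusted p = 0.104).

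A region 1807 bases from HLA-DMB, which encodes the beta chain of the class II peptide exchanger HLA-DM (32900201 to 32900600), measured 1.92, 1.61 and 1.69 CPM in differentiated libraries and 1.09, 1.45 and 1.57 CPM in undifferentiated libraries. A region 6694 bases from the class II pseudogene HLA-DPB2 (33072801 to 33073600) measured 3.16, 3.58 and 2.79 CPM in differentiated libraries and 2.52, 2.36 and 2.35 CPM in undifferentiated libraries. The states did not overlap at either, but neither passed (0.41, adjusted p = 0.122, and 0.34, adjusted p = 0.0952).

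The extended class II segment held 29 regions, of which 5 were higher, 7 lower and 17 not past the threshold. At the upper end, 8 regions from 33478801 to 33500000 lay between ZBTB9, which encodes a zinc finger protein, and BAK1, which encodes a member of the BCL2 family that promotes apoptosis. All 8 had negative fold changes (median −0.73) and 6 were lower, where 23.3% of all 5hmC regions were lower. These 8 were intergenic by the deposited distances, between 40324 and 56724 bases from the nearest gene. They are neighbours within 21.2 kb and not 8 separate observations. This stretch was singled out after its values were seen. The region from 33478801 to 33480200, which lay 53481 bases from ZBTB9, had the smallest adjusted p of the MHC. It measured 2.31, 1.88 and 2.41 CPM in differentiated libraries and 4.88, 4.10 and 5.01 CPM in undifferentiated libraries. The states were far apart, the log2 fold change was −1.04 (SE 0.167, adjusted p = 4.72e-06), and the region passed as lower in all 11 alternatives (−1.33 to −0.98).

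The region from 33484001 to 33484600 measured 1.07, 0.537 and 1.19 CPM in differentiated libraries and 1.57, 2.51 and 1.93 CPM in undifferentiated libraries, and it too passed as lower in all 11 alternatives (−0.92, SE 0.246, adjusted p = 0.00225). The one from 33487401 to 33488000 measured 1.18, 0.806 and 1.25 CPM in differentiated libraries and 2.33, 1.54 and 2.05 CPM in undifferentiated libraries (−0.82, SE 0.232, adjusted p = 0.0035; −0.64, adjusted p = 0.074, without undifferentiated replicate 1). In both the states did not overlap. The regions from 33483001, 33497601 and 33499001 were lower, with log2 fold changes of −0.66, −0.80 and −0.57 (adjusted p = 0.0169, 0.0033 and 0.0181), and these 3 lost their calls in DESeq2. The one from 33483001 also lost it without differentiated replicate 3 (−0.31) or undifferentiated replicate 3 (−0.57), and the one from 33499001 without differentiated replicate 1 (−0.49) or undifferentiated replicate 1 (−0.58) or 3 (−0.50). The states overlapped at the one from 33497601. The next region above the bound, from 33509201, had a log2 fold change of −0.34, and the first one below the lower bound, near OR14J1, had 0.59, beside −0.57 and 0.67 at the outermost members.

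**Figure D3:**
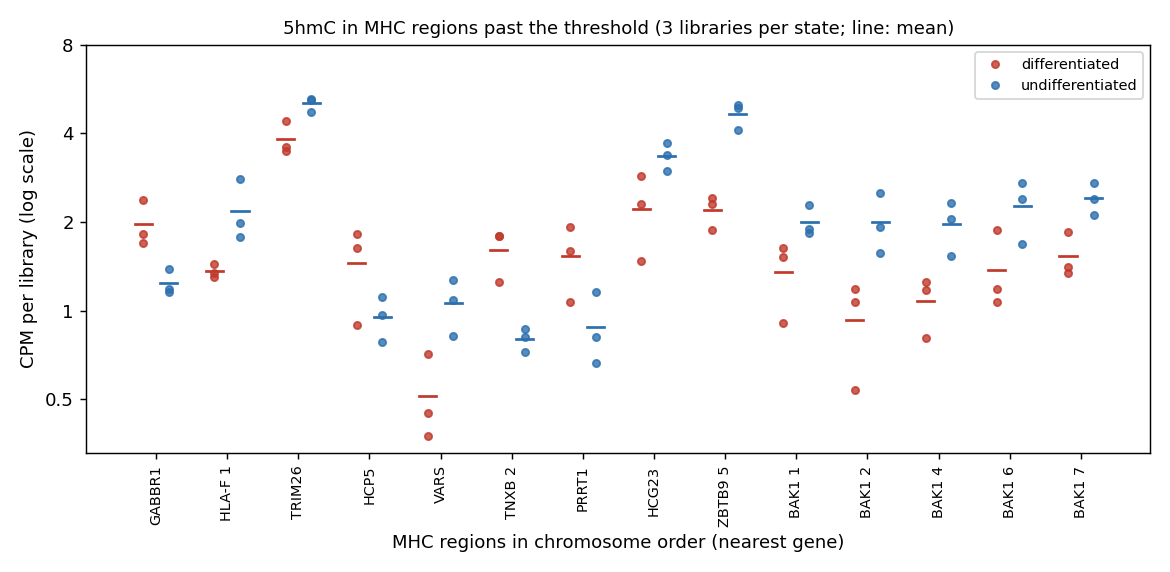
5hmC in CPM per library (log axis) at 14 of the 20 MHC regions past the threshold, in chromosome order. Red points on the left of each pair are the 3 differentiated libraries, blue points on the right the 3 undifferentiated ones, and lines are means. From the fifth ZBTB9 region onward the differentiated means lie lower.

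COL11A2, which encodes a collagen chain, held 2 regions with log2 fold changes of −0.01 and 0.13 that did not pass. Of DAXX, which encodes a chaperone of a histone H3 variant, the 4 nearby regions ran from −0.45 to 0.29, and none passed. The region of KIFC1 (−0.19) and the other 4 regions nearest ZBTB9 (−0.38 to 0.27) did not pass either.

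Summed per gene, 5hmC of 16 tested MHC genes was higher at 4, lower at 3 and not past the threshold at 9, where 25.7% of all genes were higher and 25.8% lower. TNXB was higher (0.57, SE 0.170, adjusted p = 0.0128; 0.42 to 0.83 and past the threshold in all 12 alternatives) and so was GABBR1 (0.65, SE 0.202, adjusted p = 0.0156), whose call ended in DESeq2 (0.66) and without differentiated replicate 1 (0.52) or undifferentiated replicate 1 (0.61). VARS (−1.19, SE 0.296, adjusted p = 0.00464), HCG23 (−0.78, SE 0.207, adjusted p = 0.00675) and VWA7 (−0.54, SE 0.195, adjusted p = 0.0323) were lower. GABBR1, VARS and HCG23 had 1 region each, so their gene values repeat the counts of that region. The call of VWA7 ended in DESeq2 (−0.48) and without differentiated replicate 1 (−0.61) or 3 (−0.39) or undifferentiated replicate 1 (−0.27). That of HCG23 ended without differentiated replicate 3 (−0.46) or undifferentiated replicate 1 (−0.67). Higher genes numbered 2 without differentiated replicate 1, and 1 gene was lower without differentiated replicate 3 or undifferentiated replicate 1. Over the genome, higher genes numbered 5259 in the main fit and 4189 without differentiated replicate 1. Lower genes numbered 5279 in the main fit, 4551 without differentiated replicate 3 and 3870 without undifferentiated replicate 1.

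In windows of 100 kb, 17 of the 40 in the span held a 5hmC region, and 5 of the 17 were higher and 5 lower, where 26% of all windows were higher and 26% lower. Among the windows past the threshold, the largest falls were in those from 32300001, with HCG23 (−0.89, SE 0.201, adjusted p = 0.00213), from 31700001, with VWA7 and VARS (−0.78, SE 0.173, adjusted p = 0.00186), and from 30100001, with TRIM26 (−0.54, SE 0.127, adjusted p = 0.00275), while the window from 33200001 (−0.56, adjusted p = 0.0532) did not pass. The largest rises among them were in those from 32100001, with PRRT1 and EGFL8 (0.56, SE 0.180, adjusted p = 0.0175), from 29500001, with GABBR1 (0.55, SE 0.204, adjusted p = 0.0345), and from 32000001, with TNXB (0.47, SE 0.166, adjusted p = 0.0291). The windows from 29500001, 30100001 and 32300001 held 1 region each, so they repeat the counts of that region. Higher windows numbered 2 without TMM, 1 without differentiated replicate 1, 2 without undifferentiated replicate 1, and 3 without differentiated replicate 3 or undifferentiated replicate 2 or 3. Lower windows numbered 3 without differentiated replicate 3. Over the genome, higher windows numbered 7289 in the main fit and 4116 without TMM. They numbered 5981 and 6863 without differentiated replicates 1 and 3, and 5162, 6280 and 6249 without undifferentiated replicates 1, 2 and 3. Lower windows of the genome numbered 7302 in the main fit and 6761 without differentiated replicate 3.

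The 5mC table lists only regions that the authors' own test ranked as most different, so its 9 MHC regions were already selected for a difference. Of them 2 were higher in differentiated cells, 5 lower and 2 not past the threshold, after adjustment over the 328588 tests that the list implies. Of all listed regions 35.7% were higher and 37.1% lower. That balance changed with the scaling: the median log2 fold change of all listed regions was 0.22, against −0.03 without TMM and −0.06 with TMM from the strongest regions. In those fits 3.81% and 3.03% of all listed regions were higher and 49.9% lower in each, and of the 9 MHC regions 0 were higher and 7 lower in each. The states did not overlap at 6 of the 9, against 86.1% of all listed regions. The MHC's share of the listed 5mC counts averaged 0.00411% ± 0.000257 in differentiated libraries and 0.00603% ± 0.000522 in undifferentiated libraries (SD, n = 3 each; exact permutation p = 0.1, two-sided, the smallest possible). These shares, too, rest on totals without TMM. The listed 5mC counts in the MHC numbered 314 to 423 per differentiated library and 354 to 454 per undifferentiated library.

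KIFC1, which encodes a kinesin motor of the spindle, had the largest fall, inside the gene (33364201 to 33364800). It measured 1.46, 1.65 and 2.06 CPM in differentiated libraries and 3.77, 3.60 and 3.17 CPM in undifferentiated libraries. The states were well apart (−1.02, SE 0.286, adjusted p = 0.00949; −0.91, adjusted p = 0.0512, without differentiated replicate 1). MDC1, which encodes a mediator of the DNA damage checkpoint, had a region 343 bases from its start (30685801 to 30686400) that was higher. It measured 3.94, 4.95 and 5.14 CPM in differentiated libraries and 3.50, 2.70 and 1.87 CPM in undifferentiated libraries, without overlap (0.78, SE 0.243, adjusted p = 0.0203). Without TMM it did not pass (0.52), nor with TMM from the strongest regions (0.50), without differentiated replicate 2 (0.74) or 3 (0.69) or without undifferentiated replicate 2 (0.78) or 3 (0.58).

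A region 5270 bases upstream of ZFP57, which encodes a zinc finger protein that keeps imprinted methylation, measured 3.83, 3.16 and 2.29 CPM in differentiated libraries and 4.58, 4.81 and 5.62 CPM in undifferentiated libraries (29650201 to 29651400). It was lower (−0.69, SE 0.230, adjusted p = 0.0301) and the states did not overlap, but the call ended without differentiated replicate 2 (−0.70) or 3 (−0.50) or undifferentiated replicate 2 (−0.71) or 3 (−0.60). The strongest 5mC region of the MHC lay between ZBTB9 and BAK1 (33474401 to 33476600), with 14.5, 10.9 and 10.6 CPM in differentiated libraries and 11.0, 7.51 and 7.64 CPM in undifferentiated libraries. It was higher (0.46, SE 0.148, adjusted p = 0.0251), but 1 undifferentiated library lay above 2 differentiated ones, and it did not pass without TMM (0.20), with TMM from the strongest regions (0.18), without differentiated replicate 1 (0.29) or without undifferentiated replicate 2 (0.36) or 3 (0.37). A region upstream of DAXX (33302001 to 33303000) had 3.72, 4.12 and 3.89 CPM in differentiated libraries and 6.87, 6.01 and 3.89 CPM in undifferentiated libraries and did not pass (−0.52, adjusted p = 0.0786). DESeq2's Wald test, adjusted over the same implied number, called none of the 9 regions (2.98% of all listed regions were higher and 2.22% lower), with 2 higher and 5 lower at an unadjusted p under 0.05. Lower regions numbered 2 without differentiated replicate 2 or 3 and 3 without undifferentiated replicate 2, and higher ones 1 without any 1 differentiated library and 0 without undifferentiated replicate 2 or 3. Without differentiated replicates 1, 2 and 3, 23%, 23.1% and 22.7% of all listed regions were higher and 23.6%, 23.3% and 23% lower. Without undifferentiated replicates 2 and 3, 21.6% and 22% of them were higher and 22.8% and 23% lower.

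Summed per gene, 3 MHC genes had listed 5mC, each with 1 region. Their gene values repeat the counts of those single regions under an adjustment over genes, and are no further evidence. MDC1 was higher (0.83, SE 0.242, adjusted p = 0.00185), and KIFC1 (−0.97, SE 0.278, adjusted p = 0.00164) and HCG23 (−0.60, SE 0.210, adjusted p = 0.00836) were lower, among all listed genes of which 41% were higher and 43.2% lower. HCG23 did not pass without undifferentiated replicate 3 (−0.43). These p-values carry no correction for the selection of the list.

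**Figure D4:**
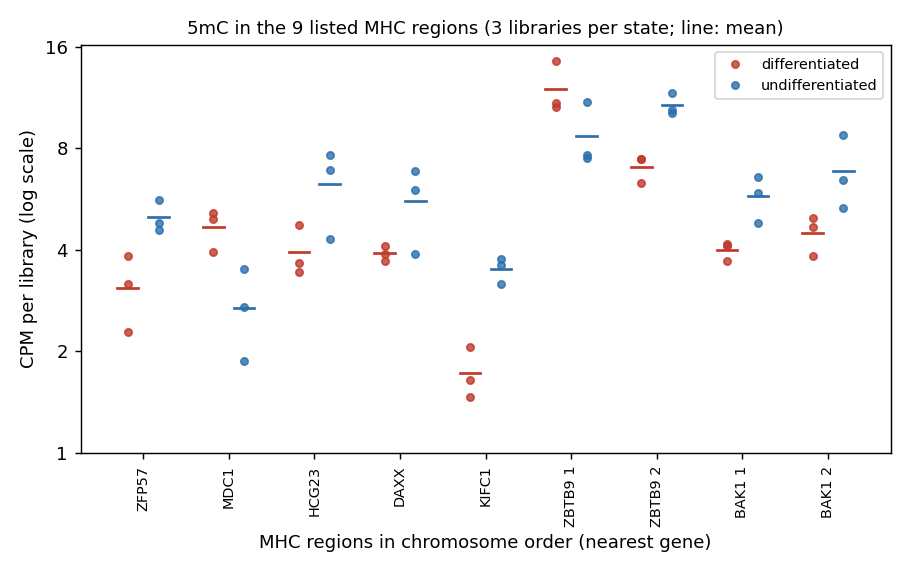
5mC in CPM per library (log axis) at the 9 listed MHC regions, in chromosome order. Red points on the left of each pair are the 3 differentiated libraries, blue points on the right the 3 undifferentiated ones, and lines are means. The differentiated means are lower at all regions but MDC1 and the first ZBTB9 region.

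Regions of the marks overlapped at 4 places, which are 44.4% of the 5mC and 8% of the 5hmC regions of the MHC. At all 4 both marks had negative fold changes. Of the 9 listed 5mC regions 7 had negative ones. All places but HCG23 lay in the stretch from ZBTB9 to BAK1, which was singled out after its values were seen. There all 8 5hmC regions had negative fold changes, so the 4 places are not separate observations. How often overlapping regions share a sign over the genome was not computed. The 5mC and 5hmC libraries come from the same DNA preparations, so that the marks share their samples. At HCG23, where the 2 regions have the same 200 bases, 5mC measured 4.73, 3.44 and 3.66 CPM in differentiated libraries and 4.31, 6.91 and 7.64 CPM in undifferentiated libraries. It was lower (−0.65, SE 0.208, adjusted p = 0.0233) with overlapping states and lost its call without differentiated replicate 2 (−0.57) or 3 (−0.59) or undifferentiated replicate 2 (−0.58) or 3 (−0.48), beside −0.75 for 5hmC. Per kb this region was the densest of the MHC for both marks, at 13.9 CPM per kb of 5hmC and 25.6 CPM per kb of 5mC. It is also the narrowest, and a value per kb is raised by a small width. Its mean 5hmC was 2.22 CPM in differentiated and 3.36 in undifferentiated libraries, below 3.83 and 5.06 beside TRIM26. Its mean 5mC was 3.94 and 6.29 CPM, below 12 and 8.73 at the region from 33474401.

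At the regions from 33478801, 53481 bases from ZBTB9, the marks shared 1200 bases. There 5mC measured 6.31, 7.42 and 7.43 CPM in differentiated libraries and 11.7, 10.4 and 10.2 CPM in undifferentiated libraries, without overlap. It was lower (log2 fold change −0.62, SE 0.154, adjusted p = 0.00345), beside −1.04 for 5hmC. The region from 33484001 lay 55724 bases from BAK1 and had the same 600 bases for both marks. There 5hmC was lower and 5mC did not pass (−0.53, adjusted p = 0.0662), although the states did not overlap for 5mC. At the other place with BAK1 as the nearest gene, the 5mC region from 33497401 and the 5hmC region from 33497601 shared 600 bases. Both were lower (−0.60 for 5mC, adjusted p = 0.0253, and −0.80 for 5hmC). The 5mC region measured 4.96, 3.85 and 4.69 CPM in differentiated libraries and 8.76, 6.46 and 5.34 CPM in undifferentiated libraries. Its states did not overlap, and its call ended without differentiated replicate 2 (−0.51) or 3 (−0.63) or undifferentiated replicate 1 (−0.38). No difference between the marks was tested, since the tables were made separately and the 5mC list was selected.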

How the data were processed

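Without giving roles, the submitters' processing notes name SICER 1.1, edgeR 2.11, bedtools 2.17.0, SAMtools 0.1.18 and BWA, with the build GRCh37 (hg19). The authors deposited unnormalized read counts per region and library for each mark, with regions on a 200-base grid. They also deposited, per the file headers, a log2 fold change (its sign, from the counts, is undifferentiated over differentiated), a mean log2 CPM, p-values and adjusted p-values, and distances to genes, gene starts and CpG islands. The sources used here do not say whether libraries were pooled to call regions. The deposited 5mC list ends at 65535 rows. Its last p-value, 0.0165 before and 0.0826 after adjustment by the authors, implies 328588 tests. Of 327949 5hmC rows, 18 had no values.

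The main test was the quasi-likelihood test of edgeR 4.0.16 after filterByExpr and TMM (n = 3 per state), in R 4.3.3. DESeq2 1.42.0 served as an alternative. Fits used each whole table, and an adjusted p (Benjamini-Hochberg) under 0.05 counted as passing. CPM values are scaled by TMM. SE were derived from F statistics and fold changes. Gene values sum regions in the gene or within 5 kb upstream, and a region near several genes counts for each. Exons, introns and UTRs were not distinguished, as an hg19 annotation was not used here. Positions are 1-based. The genes meant to part the blocks (MCCD1 or DDX39B, C6orf10, BTNL2 or HLA-DRA) were not in the gene column, so each block begins at the first region whose gene is on its list: AIF1, HCG23 and COL11A2 (5mC: DAXX).

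Named were all genes of the HLA, peptide supply, complement, tumor necrosis factor and heat shock lists with a region, up to 8 called non-overlapping regions per direction and mark, the 3 strongest regions per mark and up to 3 windows per direction. Members, lists and tests were chosen with earlier results of these data known. Same-numbered libraries did not deviate together (correlations −0.119 to −0.000179 for 5hmC and −0.01 to 0.0113 for 5mC). Regions of 1 gene count in the totals and are not reported here.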

Additional observations from a re-analysis of the deposited data

How the results depend on the processing

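No region or gene past the threshold changed direction under any alternative: 20 5hmC regions, 7 5hmC genes, 7 5mC regions and 3 5mC genes kept their sign in 220, 81, 84 and 34 comparisons, and kept their call in 167, 70, 54 and 33. Counts moved more. Without TMM, 5hmC regions numbered 4 higher and 18 lower, higher 5hmC windows 2, and 5mC regions 0 higher (1 at an unadjusted p under 0.05) and 7 lower. With TMM from the strongest features, 5hmC regions numbered 1 higher and 18 lower, 5mC regions 0 higher (1 unadjusted) and 7 lower, and 5mC in ITGAM, outside the MHC, turned to −0.048. In DESeq2's Wald test, 5hmC regions numbered 3 higher and 4 lower, 5hmC windows 3 higher and 3 lower, and 5mC regions 0 higher and 0 lower (2 and 5 unadjusted). Windows of 250 kb gave 2 higher. Within 2 kb of gene starts, with fewer genes tested, 0 genes were lower for 5hmC (7 tested, 1 unadjusted) and 0 for 5mC (1 tested). Where no cause is named, the cause was not tested.

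Leaving out 1 library at a time gave 6 to 10 higher and 6 to 15 lower 5hmC regions, 2 to 6 higher and 1 to 4 lower 5hmC genes, and 1 to 5 higher and 3 to 5 lower 5hmC windows. It gave 0 to 2 higher and 2 to 4 lower 5mC regions, 1 higher and 1 to 2 lower 5mC genes, and differences in the share of counts of −0.00134 to −0.000733 percentage points for 5hmC and −0.00212 to −0.00162 for 5mC. Over all 5hmC regions, these fits called 17.5% to 27.5% higher and 13.2% to 23.9% lower. Of all listed 5mC regions they called 21.6% to 23.1% higher and 22.8% to 23.7% lower. With the replicate number as a block, higher 5hmC windows numbered 3, and the calls at HCP5 (0.62, adjusted p = 0.0605) and of the gene VWA7 (−0.45, adjusted p = 0.0709) ended, while the block left 9 higher and 11 lower 5hmC regions. No listed 5mC region belongs to an HLA gene, so leaving those out gave no 5mC value. Regions of about 1 CPM rest on few counts, which limits single calls.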

Other observations

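Of the 20 5hmC regions of the major histocompatibility complex past the threshold here, 19 also pass an adjusted p of 0.05 in the authors' deposited table, where the region beside TRIM26 does not (0.0514). That table adds 1 region inside TNXB (32072001 to 32073000, hg19), with an adjusted p of 0.0419, against 0.0816 by edgeR's quasi-likelihood test here. All 7 of the 5mC regions past the threshold pass in the authors' deposited table as well. Both tests used the same counts, and the 5mC list was selected by the authors' test. This overlap was thus largely built in and is no further evidence. Over the 50 5hmC regions, log CPM of a pair of differentiated libraries correlated at 0.887 to 0.941, of undifferentiated ones at 0.913 to 0.937 and of libraries from both states at 0.733 to 0.845. The 9 listed 5mC regions gave 0.888 to 0.958, 0.69 to 0.908 and 0.4 to 0.749 in the same order. These correlations are across regions, which are not independent replicates. The 9 5mC regions were listed for a difference between the states, so lower correlations between states were built in by that selection.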
